A study of Gorilla gorilla gorilla with 14 samples.

Results

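Open chromatin next to 39 genes of the cadherin superfamily was measured by ATAC-seq in 4 cell types sorted from gorilla cerebral organoids. The genes were the classical, atypical and nonclustered protocadherin genes together with the FAT, Dachsous and CELSR genes. Their regions were all those with a gorilla position in the count table whose closest listed gene was a member, which gave 377 of 204249 regions. A region at most 1000 bp from its gene was counted as a promoter region, and any other as distal. By this rule 34 of 20663 promoter regions and 343 of 180739 distal regions belonged to a member, and 2847 regions had no listed gene. Of the 39 genes, 38 had a region and DCHS1 had none. A promoter region was present for 31 genes, with 2 each for CDH8, CDH15 and FAT4, and distal regions were present for 37. CDH3, CDH5, CDH19, CDH26, PCDH10, PCDH15 and FAT3 had distal regions only, and PCDH12 had a promoter region only. The promoter regions farthest from their genes were those of CDH8 at 993 bp and CDH15 at 990 bp, and the nearest ones counted as distal were at 1292 bp from PCDH17 and 1304 bp from CDH10.

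Cadherins are calcium-dependent adhesion proteins whose extracellular repeats bind cadherins on neighbouring cells and whose classical members anchor actin through catenins. In the developing cortex, N-cadherin holds the apical junction belt of radial glia, and type II cadherins and protocadherins are known for marking brain areas, nuclei and circuits. FAT, Dachsous and CELSR proteins are very large cadherins, best known from Drosophila for tissue growth control and planar cell polarity.

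The organoids were grown for 8 weeks from the gorilla induced pluripotent stem cell line GC1, a single line of unmodified genotype as far as the labels say, with no treatment compared. The groups were BCL11B+ neurons (N, n = 4), basal intermediate progenitors (bIP, n = 5), basal radial glia (bRG, n = 2) and apical radial glia (aRG, n = 3), all isolated by fluorescence-activated sorting of fixed cells. BCL11B was used in naming the neurons and is no result here. Library totals were 12834983 to 26660427 counts over all regions, and 3 counts in a library corresponded to 0.113 to 0.234 CPM, the unit used throughout, in which each count is divided by its library total after TMM correction. The library numbers formed 2 series: aRG 1 and 2, bIP 1 to 3 and N 1 and 2 were in the first, and the other libraries, both bRG libraries among them, were in the second. Within-series values are given as first and second series below, and bRG cannot be told apart from its series beyond what the other cell types show of it. No label ties the libraries to separate cultures: the p-values therefore cover the spread among these libraries alone, which may be technical.

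Marker promoters followed the labels in part. The radial glia and intermediate progenitor lists did so, but the neuronal and basal radial glia lists did not set their own type apart. The summed CPM over the 7 radial glia markers was 115 to 141 in N, 167 to 274 in bIP, 326 to 359 in bRG and 395 to 433 in aRG, and all 7 were lower in N than in aRG. The 6 neuronal markers summed to 176 to 270 CPM in N, 180 to 298 in bIP, 77.3 to 77.8 in bRG and 68.3 to 88.1 in aRG, so this list did not separate N from bIP. Of them 5 were higher in N than in aRG. The exception was BCL11B, the gene used in naming the neurons, with means of 20.3 CPM in N, 23.6 in bIP and 19.7 in aRG (N minus aRG 0.07, adjusted p = 0.76 by edgeR). The 4 measured intermediate progenitor markers summed to 87.1 to 109 CPM in N, 135 to 253 in bIP, 113 in both bRG libraries and 82.2 to 124 in aRG. The 4 measured basal radial glia markers did not separate bRG from aRG, with 41.6 to 56.8 CPM in N, 48.8 to 63.5 in bIP, 82.7 to 93.8 in bRG and 92.5 to 93.8 in aRG. The 5 measured mesenchyme markers, 4 of them lower in N than in aRG, summed to 28.1 to 34.4 CPM in N, 29.9 to 48.7 in bIP, 59.7 to 60.4 in bRG and 57.4 to 63.0 in aRG. Of the 3 measured choroid plexus markers OTX2 and AQP1 were lower in N than in aRG, and the list summed to 10.5 to 13.8 CPM in N, 14.5 to 21.5 in bIP, 21.5 to 23 in bRG and 20 to 28.2 in aRG. Both measured microglia markers were lower in N too, and summed to 0.516 to 1.83 CPM in N, 1.63 to 2.90 in bIP, 3.47 to 3.64 in bRG and 2.93 to 4.86 in aRG. Of the 6 GABAergic lineage markers, GAD1 and DLX5 were higher and DLX1 and DLX2 lower in N than in aRG. The list had 58.9 to 83.9 CPM in N, 79.8 to 118 in bIP, 80.6 to 87.5 in bRG and 85.3 to 99.9 in aRG. The part of these lists in the differences below was not tested. In sorted bulk material, fewer cells with an open region and less opening per cell cannot be told apart.

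Most member promoters that differed between neurons and apical radial glia were lower in neurons. Of 34, 19 were lower and 6 higher in N, against 35.1% lower and 17.2% higher among all promoter regions (adjusted p under 0.05, edgeR over all regions tested). The members' median log2 difference of N minus aRG was -0.47, against -0.26 over all promoters. The lower group held CDH2, CDH4, 6 type II promoters, CDH23, 5 protocadherins, FAT1, both FAT4 regions, CELSR1 and CELSR3. The higher group held CDH1, CDH22, CDH9, DCHS2, and 1 of the regions each at CDH15 and CDH8. The other 9 promoters did not pass: CDH7, CDH11, CDH13, CDH18, CELSR2, PCDH1, PCDH12, PCDH20 and the CDH15 region at 990 bp. All 19 lower and all 6 higher promoters had the same sign in both series, where 18 and 6 were called in the first, and 9 and 4 in the second, which has 1 aRG library. The balance depended on scaling: with offsets that follow region abundance in each library (a loess curve), 13 were lower and 10 higher. The shares of all promoters above belong to the main fit. Those of the loess fit are not given here, so its member counts were not set against promoters in general. The lower calls lost with loess offsets were PCDH8, PCDH9, PCDH17, the FAT4 region at 723 bp, CDH12 and the CDH8 region at 0 bp, and the sign of the last 2 turned. The higher calls gained were CDH7, CDH11, PCDH1 and PCDH12. The loess scaling, like DESeq2 size factors, moved the median of all regions in N minus aRG by -0.12, but at most member promoters the 2 scalings moved the difference in opposite directions. CDH2, for example, had -0.73 in the main fit, -0.21 with loess offsets and -0.85 with size factors. CDH18 fell with both, from 0.54 to 0.20 with loess offsets and 0.41 with size factors.

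**Figure D1:**
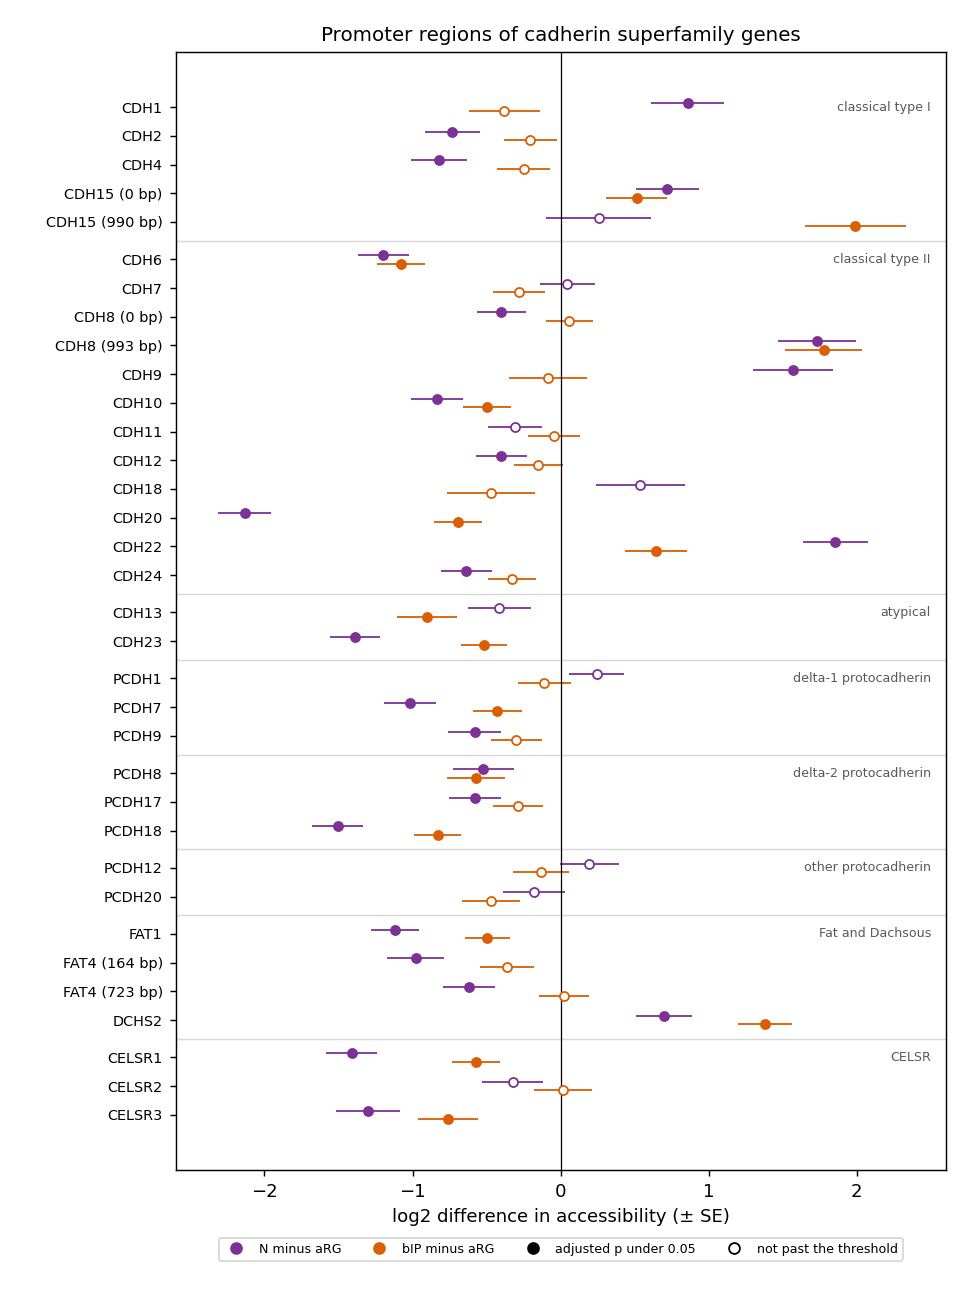
Log2 differences of the 34 member promoter regions, N minus aRG and bIP minus aRG, with standard errors as bars and filled points for an adjusted p under 0.05 (edgeR), grouped by gene role. In N minus aRG, 19 filled points lie below 0 and 6 above; CDH22 (1.85) and CDH20 (-2.13) are at the opposite ends.

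Among classical type I cadherins, which bind catenins in adherens junctions, the epithelial and neural members moved in opposite directions. The promoter region of CDH2, N-cadherin (chr18:21643048-21646634 in gorGor6, the build of all positions given), had 53.0, 66.2, 44.7 and 63.7 CPM in N, 76.4, 70.1, 60.4, 93.7 and 110 in bIP, 89.1 and 83.8 in bRG, and 90.7, 94.6 and 92.5 in aRG. All 4 N libraries were below every aRG and bRG library, while N and bIP overlapped. CDH2 was lower in N than in aRG (log2 -0.73 ± 0.19 SE, adjusted p = 0.0014; -0.61 in the first series and -0.78 in the second) and than in bIP (-0.53 ± 0.17, adjusted p = 0.0095), and against bRG the difference was -0.50 (adjusted p = 0.06). The step between N and bIP was carried by the second series, with -0.91, against -0.20 in the first (adjusted p = 0.364). The promoter of CDH1, E-cadherin, which is best known in epithelia (chr16:52213061-52214869), had far less signal: 5.03, 6.79, 5.76 and 11.4 CPM in N, 3.52, 3.11, 2.84, 2.83 and 2.70 in bIP, 3.54 and 4.31 in bRG, and 3.83, 3.99 and 3.87 in aRG. Every N library was above every library of the other types. CDH1 was higher in N than in bIP (1.24 ± 0.22, adjusted p = 2.7e-05), bRG (0.93 ± 0.29, adjusted p = 0.0077) and aRG (0.86 ± 0.25, adjusted p = 0.0037). Library N4 held the highest CDH1 value: without it the difference from aRG had an adjusted p of 0.0777 and that from bRG 0.219, and without bRG1 that from bRG had 0.0963.

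CDH4, R-cadherin, was lower in N than in aRG (log2 -0.82), with 16.5 to 22.7 CPM in N and 29.4 to 39.6 in aRG. CDH15, M-cadherin, known from muscle, had 2 promoter regions that behaved differently. The region at 990 bp (chr16:73331200-73332084) had 5.15, 6.39, 2.35 and 1.60 CPM in N, 14.2, 12.1, 8.33, 11.4 and 16.6 in bIP, 2.93 and 4.78 in bRG, and 2.37, 2.62 and 4.51 in aRG, so that every bIP library was above all others. It was higher in bIP than in aRG (1.99 ± 0.34, adjusted p = 2.9e-05) and lower in N than in bIP (-1.73 ± 0.30, adjusted p = 2.7e-05). Between N and aRG its difference was 1.22 in the first series and -1.20 in the second. The region at 0 bp (chr16:73329190-73330459) was high in N as well, with 22.4, 31.2, 15.8 and 24.3 CPM in N, 19.8, 19.4, 14.7, 21.3 and 25.8 in bIP, 10.3 and 12.3 in bRG, and 12.1, 14.8 and 15.4 in aRG. It was higher in N than in bRG (1.09 ± 0.27, adjusted p = 0.0011) and than in aRG (0.72, adjusted p = 0.0048, but 0.0623 without aRG2). The 2 measured muscle markers, MYOD1 and MYOG, summed to 9.08 to 12 CPM in N, 7.43 to 11.7 in bIP, 6.07 to 6.18 in bRG and 7.40 to 9.23 in aRG. None of them passed the threshold between N and aRG, but both were higher in N than in bRG (median log2 difference 0.74), as was the CDH15 region at 0 bp. Of them, MYOG, a muscle transcription factor, moved with the CDH15 region at 990 bp: it was higher in bIP than in aRG (0.98 ± 0.26, adjusted p = 0.003) and than in bRG (1.56 ± 0.34, adjusted p = 0.00077), and lower in N than in bIP (-0.69 ± 0.23, adjusted p = 0.014). MYOD1 did not pass between bIP and aRG (-0.36, adjusted p = 0.14), and the part of these markers in the CDH15 values was not tested.

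The 12 promoters of type II cadherins, which are known for sorting neuron groups, held the members that differed most in each direction. CDH20 (chr18:54624273-54626141) had 10.3, 12.9, 9.08 and 10.1 CPM in N, 31.1, 31.7, 22.5, 27.7 and 31.1 in bIP, 43.0 and 36.8 in bRG, and 48.9, 51.2 and 41.4 in aRG. N lay below bIP, and bIP below both glial types, with no overlap. The difference of N from aRG was -2.13 ± 0.18 (adjusted p = 2.1e-10; -2.09 and -2.11 in the first and second series), and that from bIP was -1.44 ± 0.16 (adjusted p = 4.1e-08). CDH20 was also lower in bIP than in aRG (-0.69 ± 0.16, adjusted p = 0.00099; -0.80 in the first series, -0.49 in the second with an adjusted p of 0.280). CDH22 (chr20:43591874-43593780) ran the other way, with 13.2, 18.7, 16.1 and 17.9 CPM in N, 6.70, 6.34, 4.58, 8.04 and 9.47 in bIP, 4.90 and 4.12 in bRG, and 3.32, 4.55 and 5.44 in aRG. Its N libraries were above all others, by 1.85 ± 0.22 against aRG (adjusted p = 5.8e-08) and 1.21 ± 0.18 against bIP (adjusted p = 2.7e-06). The smaller excess of CDH22 in bIP over aRG (0.64, adjusted p = 0.013) passed the threshold in the full set but not without N4 (adjusted p = 0.0526), bIP4 (0.0828), aRG1 (0.104) or aRG2 (0.0731).

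CDH9 (chr17:63587358-63588368) had 6.74, 6.73, 8.17 and 12.5 CPM in N, 3.29, 3.37, 3.33, 1.64 and 2.17 in bIP, 3.44 and 3.14 in bRG, and 2.89, 2.99 and 2.84 in aRG. CDH9 was therefore high in N alone, by 1.57 ± 0.27 against aRG (adjusted p = 1.6e-05), 1.35 ± 0.31 against bRG (adjusted p = 0.00063) and 1.66 ± 0.23 against bIP (adjusted p = 1.4e-06). CDH18 was low everywhere, with 1.95, 1.77, 3.22 and 2.21 CPM in N, 1.59, 0.906, 1.53, 0.796 and 0.869 in bIP, 1.36 and 1.64 in bRG, and 1.46, 1.62 and 1.67 in aRG, and was higher in N than in bIP (1.01 ± 0.27, adjusted p = 0.0025; 0.47 in the first series, adjusted p = 0.167). CDH6, first described in kidney and brain (chr17:56021993-56024346), had 13.7, 13, 10.7 and 12.9 CPM in N, 18.3, 15.9, 12.6, 11.9 and 11.4 in bIP, 25.2 and 23.4 in bRG, and 29.6, 31.6 and 28.1 in aRG. Here the glial types stood above N and bIP, which overlapped. CDH6 was lower in bIP than in aRG (-1.08 ± 0.16, adjusted p = 4.3e-06) and than in bRG (-0.96, adjusted p = 0.00044), and the N minus bIP difference was -0.12 (adjusted p = 0.54).

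CDH8, a type II cadherin of cortical and striatal neurons, had promoter regions at 0 and 993 bp. The one at 993 bp (chr16:45355589-45356146) had 3.31, 3.47, 4.66 and 6.80 CPM in N, 3.29, 2.98, 4.86, 5.70 and 5.26 in bIP, 1.87 and 1.45 in bRG, and 0.751, 1.06 and 2.06 in aRG. N and bIP overlapped and were above both glial types, by 1.73 ± 0.27 for N against aRG (adjusted p = 3e-06) and 1.78 ± 0.26 for bIP against aRG (adjusted p = 2.9e-06). The region at 0 bp had 15.4 to 20.9 CPM in N and 23.0 to 24.9 in aRG, a difference of -0.40 (adjusted p = 0.035) that did not pass without N1, aRG1 or aRG3 (0.0502 to 0.166) and turned its sign with loess offsets. CDH10 (-0.83) and CDH24 (-0.64) were lower in N than in aRG. CDH12 was also called lower (-0.40, adjusted p = 0.044), but not without any 1 of N1, N2, bIP1, bIP2, bRG1, bRG2, aRG1 or aRG3 (adjusted p 0.0556 to 0.142) and not with loess offsets, where its sign turned. CDH7 (0.05), CDH11 (-0.31) and CDH18 did not pass between N and aRG.

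**Figure D2:**
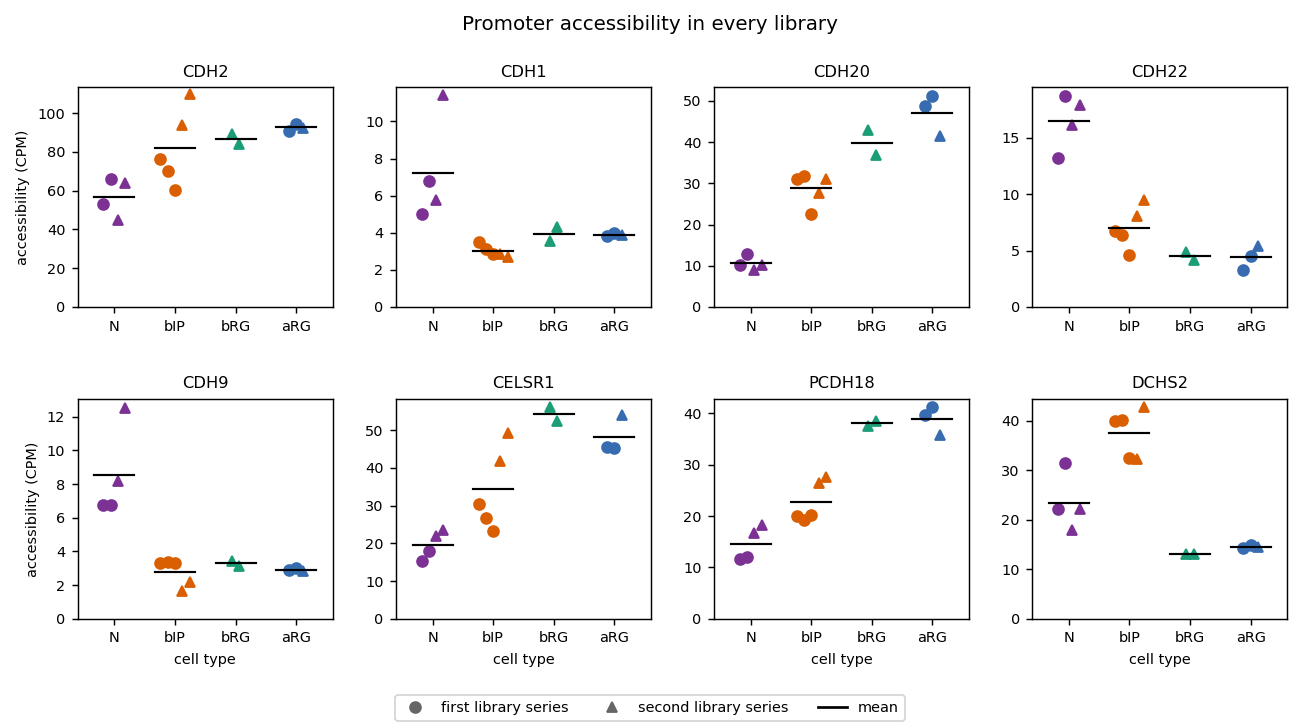
CPM in each library for 8 member promoter regions in N, bIP, bRG and aRG, with circles for the first library series, triangles for the second and a line at the group mean. CDH20, CELSR1 and PCDH18 are lowest in N, CDH22, CDH9 and CDH1 are highest in N, and DCHS2 is highest in bIP, where its libraries lie between 32.4 and 42.9 CPM.

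The atypical members have a membrane anchor or a long ectodomain in place of the classical tail. CDH23, a tip-link protein of inner-ear hair cells (chr10:35286998-35289641), had 15, 19.3, 23.6 and 22.9 CPM in N, 34.9, 32.1, 24.8, 44.3 and 43.4 in bIP, 46.3 and 47.3 in bRG, and 45.9, 48.5 and 54.8 in aRG. N was below all the other libraries, by -1.39 ± 0.17 against aRG (adjusted p = 9.4e-08) and -0.87 ± 0.15 against bIP (adjusted p = 2.4e-05). CDH13, the lipid-anchored T-cadherin, had 5.07, 4.89, 3.51 and 3.71 CPM in N, 3.29, 3.62, 3.26, 3.14 and 2.37 in bIP, 3.54 and 4.59 in bRG, and 6.84, 7.98 and 3.78 in aRG. CDH13 was lower in bIP than in aRG (-0.90 ± 0.20, adjusted p = 0.00057), by -1.11 in the first series and -0.45 in the second (adjusted p = 0.482).

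Of the 8 protocadherin promoters, 5 were lower in N than in aRG and none was higher in the main fit. With loess offsets PCDH8, PCDH9 and PCDH17 were no longer called. PCDH1 (0.72, adjusted p = 1.4e-07) and PCDH12 (0.49, adjusted p = 0.0272) were then called higher in N. Delta protocadherins are homophilic adhesion molecules, and the delta-2 members bind the actin-regulating WAVE complex. The delta-2 gene PCDH18 (chr4:135116861-135119149) had 11.6, 12.1, 16.8 and 18.2 CPM in N, 20.1, 19.3, 20.2, 26.5 and 27.7 in bIP, 37.6 and 38.5 in bRG, and 39.7, 41.3 and 35.8 in aRG. The types followed each other without overlap except between bRG and aRG. PCDH18 was lower in N than in aRG (-1.51 ± 0.17, adjusted p = 3.9e-08) and lower in bIP than in aRG (-0.83 ± 0.16, adjusted p = 0.00012; -1.01 in the first series, -0.40 in the second with an adjusted p of 0.395). The other delta-2 promoters were closer together: PCDH17 had 26.4 to 36.8 CPM in N and 38.1 to 45.4 in aRG (-0.58, adjusted p = 0.006). PCDH8, with 37.3 to 56.5 CPM in N and 51.8 to 71.7 in aRG, was called lower (-0.52, adjusted p = 0.029), but not without N1 (0.0589) or aRG1 (0.112). Of the delta-1 genes, PCDH7 (-1.02, adjusted p = 1.7e-05) and PCDH9 (-0.58) were lower in N than in aRG, and PCDH1 did not pass (0.24). PCDH12, known from endothelium, and PCDH20 had differences of 0.19 and -0.18 that did not pass.

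CELSR proteins are the vertebrate relatives of Drosophila flamingo, a core planar polarity protein. CELSR1 (chr22:29015219-29017917) had 15.2, 18, 21.9 and 23.5 CPM in N, 30.5, 26.8, 23.4, 41.8 and 49.4 in bIP, 56.2 and 52.4 in bRG, and 45.7, 45.3 and 54.0 in aRG. N was below both glial types, by -1.41 ± 0.17 against aRG (adjusted p = 9.1e-08) and -1.22 ± 0.20 against bRG (adjusted p = 1.1e-05). CELSR3 was lower in N than in aRG too (-1.30 ± 0.22, adjusted p = 1e-05), with 2.69 to 3.60 CPM in N and 6.21 to 8.83 in aRG, while CELSR2 did not pass (-0.32, adjusted p = 0.17). Among the giant cadherins, FAT1 (-1.12 ± 0.16, adjusted p = 1e-06) and both FAT4 regions, at 164 bp (-0.98, adjusted p = 7.7e-05) and 723 bp (-0.62, adjusted p = 0.0036), were lower in N than in aRG. FAT4 is known as the receptor of Dachsous ligands.

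DCHS2, of the Dachsous family, was the exception among the giant cadherins. Its promoter region (chr4:152316327-152318914) had 22.1, 31.5, 18 and 22.1 CPM in N, 40.0, 40.1, 32.5, 32.4 and 42.9 in bIP, 13.1 and 13.1 in bRG, and 14.3, 14.9 and 14.5 in aRG. All bIP libraries were above all N libraries, and these above both glial types. DCHS2 was higher in bIP than in aRG (1.38 ± 0.18, adjusted p = 8.6e-07; 1.38 in each series) and than in bRG (1.43 ± 0.23). It was lower in N than in bIP (-0.68 ± 0.16, adjusted p = 0.00081) and higher in N than in aRG (0.70 ± 0.19, adjusted p = 0.002), the last not without aRG2 (adjusted p = 0.0713) and not in the second series (0.47, adjusted p = 0.258).

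The remaining comparisons of promoters moved fewer members. In bIP against aRG, 5 were higher and 11 lower, against 11.5% and 18.4% of all promoters, with a member median of -0.29 and -0.15 over all. In bIP against bRG, 5 were higher and 5 lower (10.9% and 10.1% of all promoters, or 5 higher and 8 lower with loess offsets), and without bRG1 3 and 1 passed, and without bRG2 4 and 1. In N against bIP, 5 were higher and 14 lower (14.3% and 22.9% of all promoters), or 11 and 10 with loess offsets. In N against bRG, 7 were higher and 13 lower (16.6% and 21.8%), or 10 and 12 with loess offsets, and 11 in all were past the threshold without bRG1. Among the promoters called lower in bIP than in bRG, CDH20 (-0.55, adjusted p = 0.035) did not pass without bRG1, bRG2, aRG1 or aRG3 (adjusted p 0.0517 to 0.283). PCDH18 (-0.55, adjusted p = 0.03) did not pass without bRG1, bRG2, bIP2 or aRG3 (0.0512 to 0.153), and CDH13 (-0.69, adjusted p = 0.033) not without bRG1, bRG2, bIP1, bIP5 or aRG3 (0.0509 to 0.327). The comparisons share libraries with each other. The percentages of all promoters are those of the main fit and are no background for the loess counts.

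No member passed the threshold between basal and apical radial glia in the fit over all 14 libraries. By edgeR 0 of 34 promoters and 0 of 339 distal regions tested passed, as did 0% of all promoter and 0% of all distal regions. At an unadjusted p under 0.05 there were 1 promoter and 16 distal regions, and DESeq2 called 0 members. With the libraries of these 2 types fitted alone, 1 distal member region was called lower in bRG, beside 94 higher and 1031 lower of 178460 regions of all kinds in that fit. The promoter with the smallest p was PCDH8, with 48.2 and 41.0 CPM in bRG and 69.3, 71.7 and 51.8 in aRG (log2 -0.64, 95% interval -1.21 to -0.08, unadjusted p = 0.0268 by edgeR, adjusted p = 0.987). The next was CDH23 (-0.37, -0.82 to 0.08). For CDH2 the difference was -0.23 (-0.74 to 0.28), and for CDH1 -0.08 (-0.74 to 0.59). With 2 bRG libraries, the interval lay within a 2-fold change either way at 32 of 34 promoters but at 121 of 339 distal regions, and within 4-fold at 34 and 312, so smaller differences were not detectable at distal regions.

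Distal regions of the members were more often higher than lower in neurons than in apical radial glia. Of 339 tested, 158 were higher and 75 lower in N than in aRG, against 39.5% higher and 28.4% lower among all distal regions, with a member median log2 difference of 0.64 and 0.30 over all. These shares belong to the main fit, and the balance over regions of all kinds depended on the fit. It was 74624 higher and 58712 lower in the main fit, but 67329 and 67818 with no filter on low counts. Without N3 it was 67892 and 68931. The 4 regions not tested for low counts were 2 at CDH13 and 1 each at CDH20 and CDH22. The distal regions of the 18 genes whose main promoter was lower in N than in aRG had 88 higher and 53 lower of 206, or 42.7% and 25.7%, which is close to the 39.5% and 28.4% of all distal regions. For the 5 genes whose main promoter was higher the counts were 21 higher and 3 lower of 31, and for the 8 not called 21 and 14 of 53. Both directions occurred at 22 of 37 genes, 9 had called regions in the higher direction only and 6 in the lower only. Type II cadherins, with 157 distal regions, had 78 higher and 28 lower, delta-2 protocadherins 20 and 8 of 37, and FAT and Dachsous genes 21 and 11 of 48. Atypical cadherins had 10 higher and 2 lower of 18, and delta-1 protocadherins 11 and 9 of 25. CELSR genes had 1 higher and 7 lower of 13, and type I cadherins 8 and 9 of 28. No difference between role groups was tested, and neighbouring regions share a gene and often a domain. Leaving out each library in turn kept 121 of the 158 higher and 61 of the 75 lower calls.

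**Figure D3:**
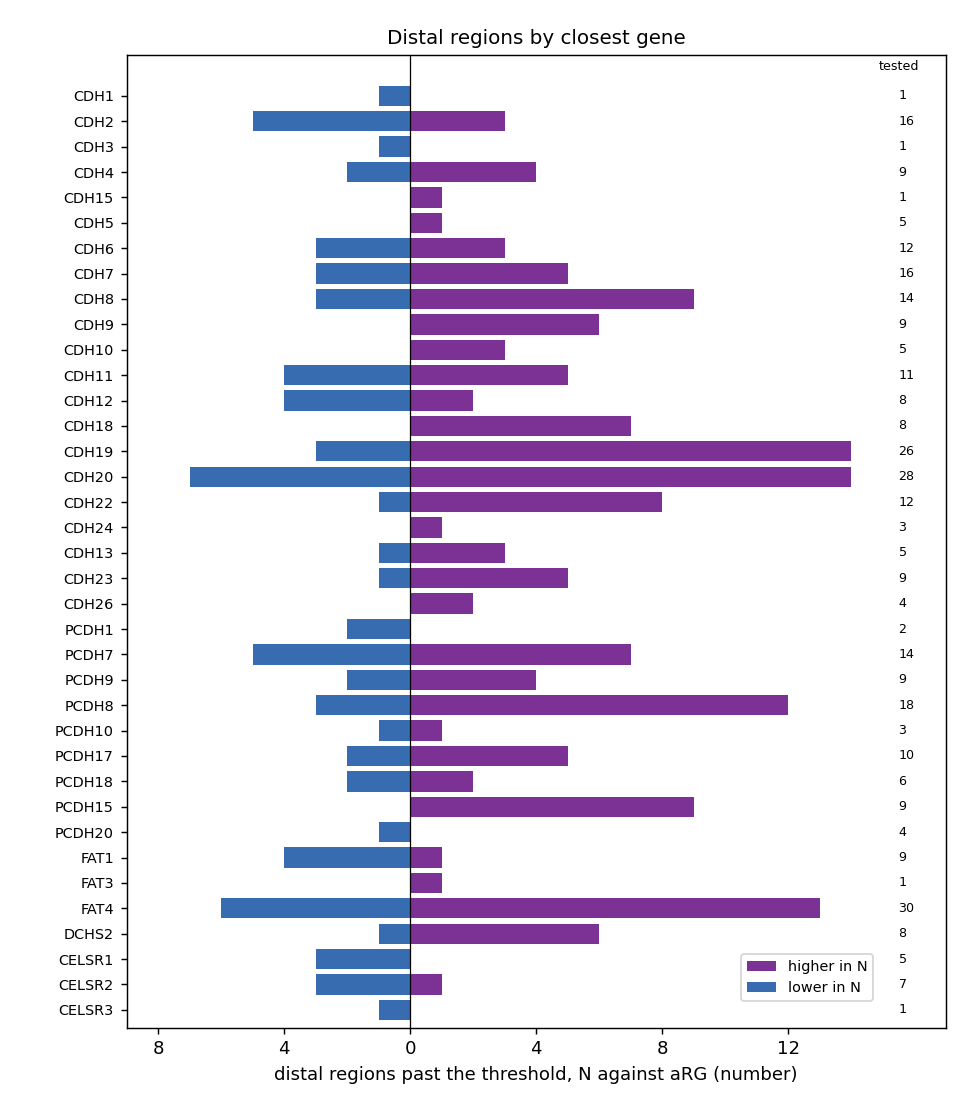
Number of distal regions called higher (right) and lower (left) in N than in aRG for each closest member gene, with the number tested at the right edge. CDH20 and CDH19 each have 14 regions higher in N, PCDH15 has 9 of 9 higher, and CELSR1 has 3 of 5 lower and none higher.

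In bIP against aRG, 79 distal regions were higher and 54 lower (25.5% and 21.1% of all distal regions), but 70 and 73 without N3 and 52 and 57 without aRG2. N3 belongs to neither type. The calls over all regions turned as well, from 48276 higher and 41976 lower to 44538 and 55727 without N3, and 36537 and 42785 without aRG2. With every library kept but no filter on low counts they were 42440 and 50783. The balance of directions thus depended on the libraries and regions fitted, for all regions as for the members. In N against bIP, 130 were higher and 77 lower (30.6% and 26.7%), with a member median of 0.20 and 0.03 over all. In N against bRG, 131 were higher and 66 lower (34.1% and 26.2%), and in bIP against bRG 66 and 42 (21.5% and 16.7%). Without bRG1 the last comparison called 64 regions in all, and without bRG2 68.

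The distal regions with the smallest p differed more than 4-fold between types. A region listed 122898 bp from CDH20 (chr18:54503721-54504686) had 15.8, 14.9, 11.1 and 17.3 CPM in N, 2.61, 2.14, 2.29, 3.23 and 3.77 in bIP, 0.859 and 1.08 in bRG, and 0.751, 0.811 and 1.32 in aRG. The N libraries were all above 10 CPM and the glial ones near 1, a log2 difference of 3.92 ± 0.27 from aRG (adjusted p = 1.3e-11) and 2.39 ± 0.20 from bIP (adjusted p = 3.8e-10). A region 123148 bp from CDH19 (chr18:59755446-59756865), a type II gene known from Schwann cell precursors, had 16.6, 14, 12.2 and 22.2 CPM in N, 3.75, 2.78, 2.57, 3.71 and 2.80 in bIP, 0.556 and 1.12 in bRG, and 0.711, 0.499 and 1.47 in aRG, a difference of N from aRG of 4.14 ± 0.31 (adjusted p = 4.7e-11). The 2 measured neural crest markers, SOX10 and FOXD3, were both lower in N than in aRG and summed to 4.08 to 7.68 CPM in N and 8.97 to 9.98 in aRG. A region 46102 bp from CDH7 (chr18:58993453-58994460) was already raised in bIP, with 18.6, 14.7, 10.6 and 17.8 CPM in N, 7.30, 7.31, 9.44, 5.13 and 7.10 in bIP, 0.657 and 0.890 in bRG, and 0.870, 0.749 and 1.77 in aRG. It was higher in bIP than in aRG by 2.66 ± 0.29 (adjusted p = 4.9e-08), while the CDH7 promoter did not differ past the threshold.

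PCDH15, the partner of CDH23 in the hair-cell tip link, had 9 distal regions and no promoter region, and all 9 were higher in N than in aRG, in the full set and without any 1 library, by 1.30 to 3.61 on the log2 scale. At 49331 bp (chr10:51793473-51794527) there were 7.80, 4.82, 8.94 and 15.4 CPM in N, 1.17, 1.04, 0.694, 0.663 and 0.821 in bIP, 0.657 and 0.890 in bRG, and 0.553, 0.624 and 0.932 in aRG. N was apart from all other types, by 3.28 ± 0.27 against bIP (adjusted p = 4.7e-10) and 3.61 ± 0.34 against aRG. A region 12776 bp from CDH5, VE-cadherin of endothelium (chr16:49710531-49711560), had 9.24, 12.2, 6.77 and 10.2 CPM in N, 1.48, 1.68, 2.01, 1.02 and 1.01 in bIP, 0.202 and 0.562 in bRG, and 0.870, 0.499 and 0.833 in aRG, and was higher in N than in bIP by 2.80 ± 0.23 (adjusted p = 4.5e-10). The 4 measured endothelial markers summed to 15.9 to 32.7 CPM in N, 13.3 to 16.1 in bIP, 18.2 to 21.7 in bRG and 19.3 to 26.9 in aRG, with KDR and CLDN5 higher in N than in bIP, and their part in the CDH5 value was not tested.

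The 3 distal regions with the smallest p among those lower in N than in aRG lay at protocadherin genes. A region 18400 bp from PCDH17 (chr13:37889257-37891236) had 2.38, 2.04, 4.28 and 2.91 CPM in N, 32.3, 32.8, 23.2, 39.5 and 33 in bIP, 26.8 and 28.2 in bRG, and 23.4, 20.8 and 24.6 in aRG. It was open in all 3 progenitor types and near 3 CPM in N, by -3.52 ± 0.19 against bIP (adjusted p = 9.8e-12) and -3.06 ± 0.20 against aRG (adjusted p = 8.5e-12), where the PCDH17 promoter differed by -0.58. A region 53548 bp from PCDH9 (chr13:46837141-46838171) was lower already in bIP, with 1.60, 1.09, 1.59 and 0.938 CPM in N, 6.73, 6.80, 3.61, 3.89 and 1.79 in bIP, 17.8 and 17.7 in bRG, and 29.0, 31.3 and 17.4 in aRG. It fell by 4.13 ± 0.28 in N relative to aRG (adjusted p = 1.3e-11) and by 2.47 ± 0.23 in bIP relative to aRG (adjusted p = 5.9e-09). A region 6795 bp from PCDH10, a delta-2 gene known from axon tracts (chr4:130731563-130732725), had 2.85, 2.79, 2.93 and 1.31 CPM in N, 15.3, 14.2, 10.5, 11 and 10.8 in bIP, 21.2 and 18.8 in bRG, and 31.5, 31.6 and 19.4 in aRG, a difference of N from aRG of -3.39 ± 0.22 (adjusted p = 7.8e-12). Against these, PCDH8 had 12 of 18 distal regions higher and 3 lower in N than in aRG.

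At type II genes, too, some distal regions were glial. One 39628 bp from CDH12 (chr17:67698427-67699188) had 0.858, 0.951, 1.44 and 0.610 CPM in N, 4.69, 2.52, 1.80, 2.08 and 1.01 in bIP, 12.6 and 12.3 in bRG, and 16.1, 17.2 and 10.6 in aRG, and was lower in bIP than in aRG (-2.54 ± 0.27, adjusted p = 2.9e-08) and than in bRG (-2.73 ± 0.35). One 63967 bp from CDH8 (chr16:45418427-45419228) had 0.546, 0.679, 1.01 and 0.563 CPM in N, 1.55, 1.88, 1.53, 1.81 and 0.435 in bIP, 6.88 and 6.84 in bRG, and 8.26, 7.30 and 6.77 in aRG, and was lower in bIP than in aRG (-2.36 ± 0.27, adjusted p = 9.2e-08). In both, the glial libraries were clear of all bIP and N libraries, whereas 9 of the 14 distal regions of CDH8 were higher and 3 lower in N than in aRG.

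**Figure D4:**
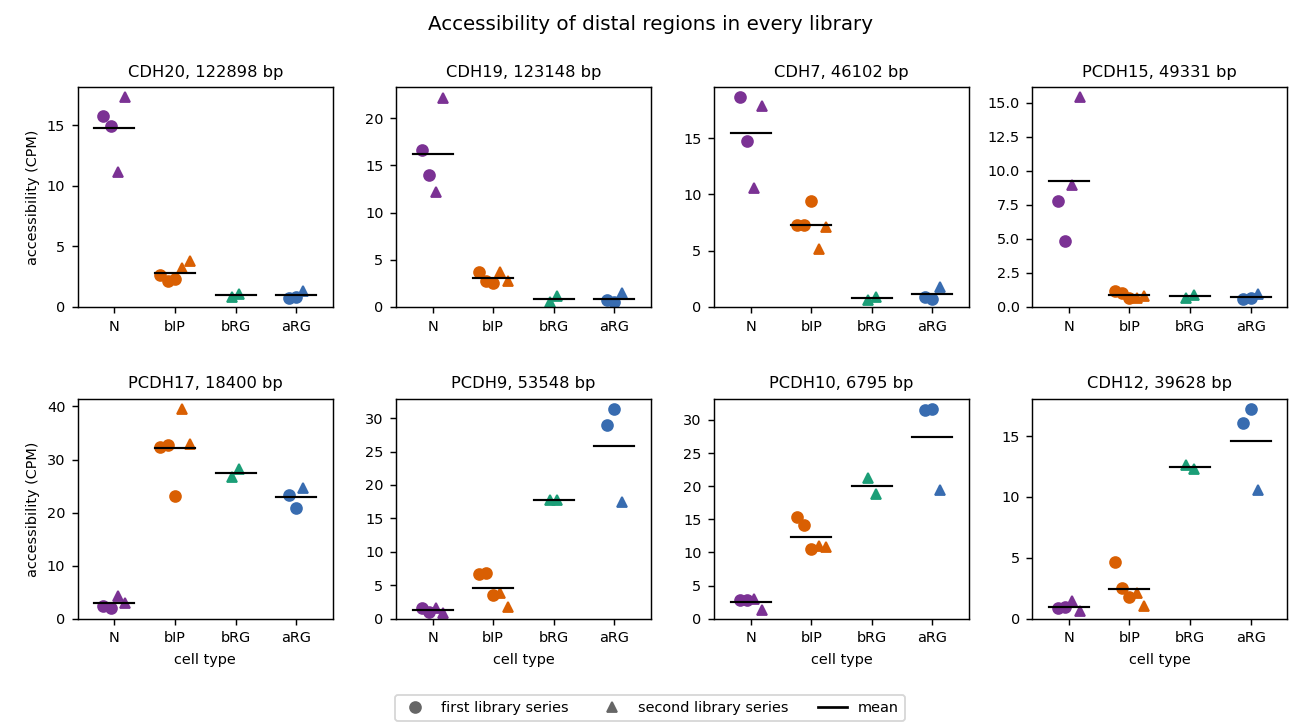
CPM in each library for 8 distal member regions in N, bIP, bRG and aRG, with circles for the first library series, triangles for the second and a line at the group mean. The regions of CDH20, CDH19, CDH7 and PCDH15 are highest in N, those of PCDH9, PCDH10 and CDH12 are highest in the glial types, and that of PCDH17 lies between 2.04 and 4.28 CPM in N and between 20.8 and 39.5 CPM elsewhere.

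The DCHS2 locus repeated its promoter pattern over most of its length. Of 8 distal regions, 7 were higher in bIP than in aRG and none lower, and 6 were lower in N than in bIP and none higher. The region at 5513 bp (chr4:152323432-152324573) had 3.24, 2.17, 2.69 and 1.60 CPM in N, 21.6, 20.6, 18.7, 16.6 and 16.8 in bIP, 2.38 and 2.15 in bRG, and 0.751, 1.06 and 2.21 in aRG. It was high in bIP alone, by 3.82 ± 0.30 against aRG (adjusted p = 7.2e-10), and N minus bIP was -2.94 ± 0.24 (adjusted p = 4.2e-10). The region at 33776 bp (chr4:152283468-152284226) had the same shape, with 3.98, 3.26, 2.64 and 1.88 CPM in N, 17.3, 19.0, 16.3, 12.9 and 12.6 in bIP, 2.73 and 2.76 in bRG, and 1.74, 2.12 and 2.16 in aRG (bIP minus aRG 2.96 ± 0.22, adjusted p = 6.3e-10). That at 10067 bp (chr4:152327976-152329219) stayed high in neurons, with 9.71, 7.68, 8.12 and 8.40 CPM in N, 12.6, 11.9, 14.5, 13.7 and 12.2 in bIP, 2.02 and 1.97 in bRG, and 0.988, 1.25 and 2.55 in aRG. In DCHS2 the bIP minus aRG difference there was 3.04 ± 0.25 (adjusted p = 1.2e-09), and N minus bIP was -0.63.

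At the CDH20 locus, regions near the promoter and far from it differed in direction. Of its 28 distal regions, 14 were higher and 7 lower in N than in aRG, and all 21 calls were kept without any 1 library. The promoter and the regions with centres 15.67, 11.39 and 9.75 kb below it in coordinate and 3.11 and 6.44 kb above it were lower in N than in aRG, with -3.34 at 3.11 kb, as were those 202.16 and 157.3 kb below it. The 4 regions 24.73 to 40.39 kb below it and those 10.58 and 20.29 kb above it were higher, as was the one at 122898 bp. The region 93607 bp from CDH20 (chr18:54530726-54531631) was highest in bIP, with 7.45, 7.0, 3.27 and 4.79 CPM in N, 9.99, 10.6, 10.3, 14.1 and 14.2 in bIP, 1.47 and 1.26 in bRG, and 1.34, 1.25 and 1.42 in aRG (bIP minus bRG 3.09 ± 0.34, adjusted p = 2.1e-07). A CDH19 region at 90496 bp (chr18:59966767-59968250) had 4.37, 2.99, 6.29 and 6.99 CPM in N, 6.39, 6.80, 8.60, 13 and 13.6 in bIP, 2.27 and 2.48 in bRG, and 0.830, 0.749 and 2.30 in aRG (bIP minus bRG 2.53 ± 0.28, adjusted p = 1.9e-07). Both were higher in bIP than in either glial type in every library. The CDH20 pattern by distance, and the choice of the DCHS2 and CDH20 loci for it, were made after the values were seen.

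**Figure D5:**
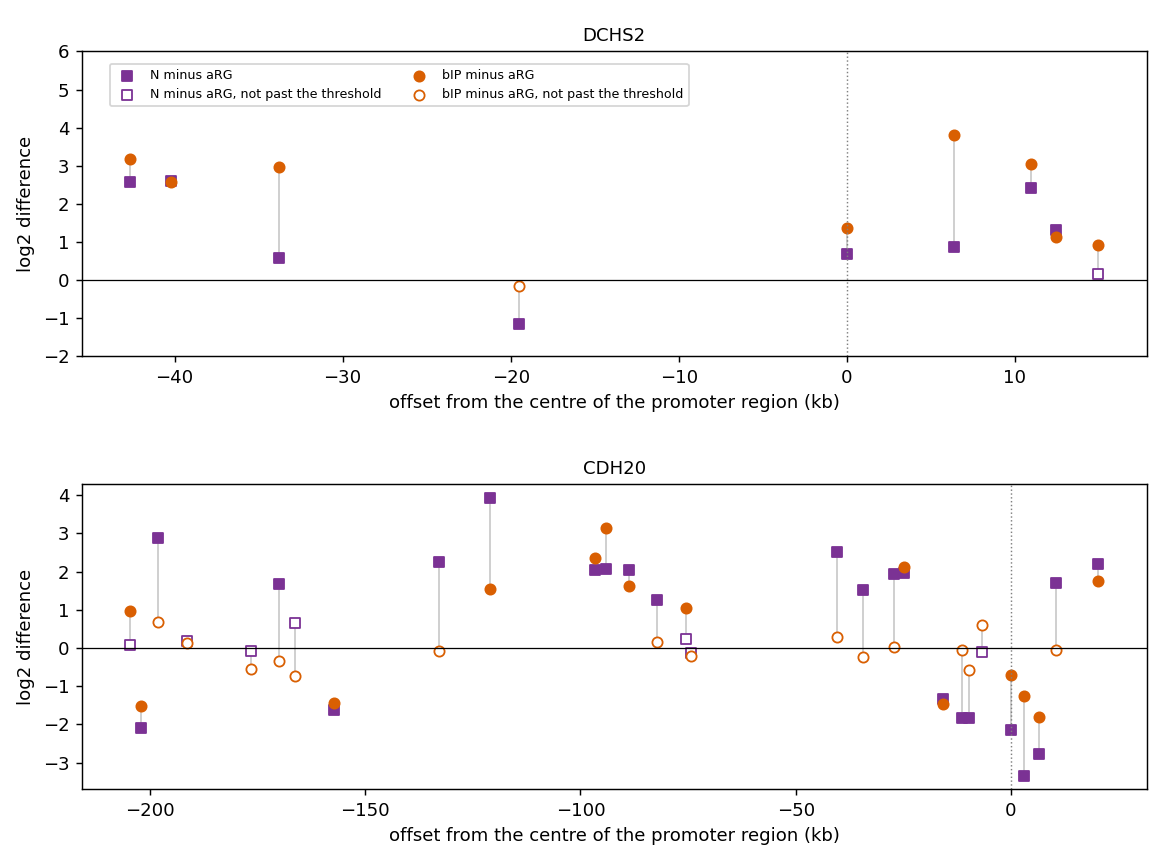
Log2 differences at the regions of DCHS2 and CDH20, N minus aRG as squares and bIP minus aRG as circles, against the offset of each region's centre from that of the promoter region, in kb. At DCHS2 the bIP circles rise to 3.82, and at CDH20 the squares are below 0 from the promoter to 6.44 kb and above 0 at 10.58 and 20.29 kb.

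CDH2 also had distal regions that were high in intermediate progenitors, which were chosen for naming after their values were seen. At 147921 bp (chr18:21792973-21794379) there were 5.57, 3.80, 6.05 and 6.85 CPM in N, 15.5, 17.3, 15.2, 22.3 and 24.5 in bIP, 8.95 and 7.54 in bRG, and 4.31, 4.43 and 8.68 in aRG. Every bIP library was above all others for this CDH2 region, by 1.70 ± 0.19 against aRG (adjusted p = 7.3e-08), and N minus bIP was -1.81 ± 0.17 (adjusted p = 3.8e-09). Of the 16 distal regions of CDH2, 3 were higher and 5 lower in N than in aRG. The CDH2 promoter had no such excess in bIP (-0.20 for bIP minus aRG, adjusted p = 0.39).

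By region width, the most open member promoters on average over the cell types were PCDH8 (26.2 CPM per kb), PCDH9 (25.7), FAT4 (22.8) and CDH2 (21.7). The least open were CDH18 (1.91), CDH1 (2.51) and CDH13 (2.53). Member promoters were wider and held more signal than promoters in general, with a median width of 1926.5 bp against 1370 bp for all and a median level of 11.6 CPM per kb against 8.85. Member distal regions had a median level of 1.70 CPM against 1.82 for all, and lay at a median of 32160 bp from the gene against 25237 bp. The regions were unevenly placed, with 90 on chromosome 18 from 4 genes, 76 on chromosome 4 from 6 genes and 47 on chromosome 16 from 7 genes.

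The deposited consensus peaks, 1 set per cell type, touched 29 of 34 member promoters in N, 29 in bIP, 29 in bRG and 28 in aRG, and 25 were touched in all 4. Among all promoters the shares were 69.8%, 71.7%, 72.6% and 72.2% in the same order. These shares, and those of all distal regions below, leave out chromosomes 2A and 2B, where no member region lay. They are over 19129 promoter and 165000 distal regions. Of 343 distal member regions, 110 were touched by a peak in N, 89 in bIP, 102 in bRG and 104 in aRG. These were 32.1%, 25.9%, 29.7% and 30.3%, near or below the 33.2%, 31.7%, 31.8% and 32.4% of all distal regions. By peak pattern, 46 were touched in N alone (13.4%, against 11.4% of all distal regions), 34 in bRG and aRG alone (9.91%, against 8.12%), 33 in all 4 types (9.62%, against 11.9%), and 143 in none (41.7%, against 39.5%). There is 1 set per type, so these counts have no replicate error.

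Promoters of genes that work with cadherins were compared in N against aRG too, where 35.1% of all promoters were lower and 17.2% higher, with a median of -0.26. The calls below are those of the main fit, and none with loess offsets is given for these genes. Of 6 measured catenin and adaptor genes, AFDN, the nectin-linked scaffold afadin, was higher (0.75, adjusted p = 0.019) and none was lower. CTNNB1, CTNNA1, CTNNA2, CTNNA3 and PKP4 had no promoter region by the rule used. Of 9 planar polarity partners, 6 were lower and none higher, with a median of -0.49. They included VANGL2, a core polarity membrane protein (-0.71 ± 0.18, adjusted p = 0.00099), and the Wnt receptor FZD6 (-0.88, adjusted p = 0.00036). Of 6 WAVE complex genes, NCKAP1, ABI1 and ABI2 were lower and none was higher. Of the cadherin repressors, the 2 measured, SNAI2 (-0.74) and TWIST1 (-0.86), were both lower in N, and the 1 measured cadherin protease gene did not pass. Fewer passed in N against bRG, where 21.8% of all promoters were lower. There 1 of the 9 planar polarity partners (FZD6), 0 of the 6 WAVE genes and 1 of the 2 repressors (TWIST1) were lower in N.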

How the data were processed

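The deposited table holds the authors' raw read counts per region and library, with the region's position in gorGor6 and its closest gene and distance, per the file headers. The reference point of the distance, and the base from which positions count, are not stated there. bcl2fastq 2.20.0, MACS2 and the builds hg38 and panTro6 are named in the submitters' processing notes. The aligner, the counter and any shift for the transposase were "not given in the sources used here", so a shift could move reads at region edges. Libraries came from sorted fixed cells with overnight crosslink reversal and size selection, per the labels' protocols. The deposited peak sets give a score, a fold enrichment and a −log10 q per peak from the authors' caller, as 1 consensus set per cell type. They name no build and were taken as gorGor6 because of their overlap with the regions. Outside chromosomes 2A and 2B, the share of promoters touched by N peaks was 69.8%. It fell to 8.93% after a shift by 50 kb.

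From 218080 regions, 13823 without a gorilla position and 8 repeats were left out. edgeR 4.0.16 in R 4.3.3 (filterByExpr, TMM, quasi-likelihood test) was fitted to all 14 libraries with a term for library series, on 200931 regions with 9 residual degrees of freedom. The p-values of each comparison were adjusted by Benjamini-Hochberg across every region tested and called under 0.05, and the procedure was tested on simulated data. Log2 differences are the first named type minus the second, and CPM are counts scaled with the TMM factors. Intervals cover the fit's error, and floors of 3 counts cover counting error only. Values in every library are given for the CDH1 and CDH2 promoters and, per comparison, up to 4 promoters and 3 distal regions with the smallest p in each direction. Other genes are given by role. Alternatives were DESeq2 1.42.0, other scalings, filters, distances and series, and leaving out each library. The members and gene lists were chosen with earlier results of these data known. RefSeq symbols matched 37 of 39 members, and no sequence is printed.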

Additional observations from a re-analysis of the deposited data

Results flagged for a closer look

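Among 49 named regions, 98 groups of 4 or 5 libraries were searched for a library apart from the rest, which chance gives in about 1 in 20 groups, and 3 were found. At the PCDH17 promoter, N4 had 36.8 CPM, against 26.4 to 26.7 in the other N libraries. At the distal PCDH10 region at 6795 bp, N4 had 1.31 CPM, against 2.79 to 2.93 in the others. At the distal CDH8 region at 63967 bp, bIP5 had 0.435 CPM, against 1.53 to 1.88 in the other bIP libraries.

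In 9 cases all libraries of the later type moved one way relative to aRG in 1 library series and the other way in the other, and the difference between series was not tested. At the CDH15 promoter region at 990 bp, N minus aRG was -1.20 in the second series and 1.22 in the first (log2). The rest concern bIP minus aRG. The CDH2 promoter had 0.14 in the second series and -0.41 in the first. The PCDH17 promoter had 0.11 and -0.47, and the PCDH1 promoter had 0.21 and -0.29, second series first. The FAT4 promoter regions had 0.13 and -0.63 at 164 bp, and 0.31 and -0.14 at 723 bp, in the same order. The CDH9 promoter had -0.58 in the second series and 0.19 in the first, the CDH8 promoter region at 0 bp had -0.08 and 0.15, and the distal PCDH15 region at 49331 bp had -0.33 and 0.79. The second series holds 1 aRG library. In the full set, bIP minus aRG did not pass the threshold at any of these 8 regions, nor did N minus aRG at the CDH15 region.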

How the results depend on the processing

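No result that passed the threshold passed it in the opposite direction under an alternative. The CDH11 promoter, not called in N against aRG (-0.31, adjusted p = 0.135), was called higher with loess offsets (0.17, adjusted p = 0.0261). The same held for the promoters of CDH7 (0.48 with loess offsets, adjusted p = 0.00045), PCDH1 (0.72, adjusted p = 1.4e-07) and PCDH12 (0.49, adjusted p = 0.0272). Loess offsets also turned the promoter balance in N against bIP to 11 higher and 10 lower, against 5 and 14. Leaving out each library in turn gave 22 to 27 promoters and 207 to 233 distal regions called in N against aRG, 17 to 21 and 183 to 216 in N against bIP, 11 to 23 and 158 to 203 in N against bRG, 11 to 23 and 108 to 145 in bIP against aRG, 4 to 12 and 64 to 118 in bIP against bRG, and 0 in bRG against aRG. The second series alone gave 14 promoters in N against aRG, 4 promoters and 62 distal regions in bIP against aRG, and 6 promoters in bIP against bRG. With bRG and aRG fitted alone, 1 distal member region was called, beside 94 higher and 1031 lower of 178460 regions of all kinds. With promoters taken to 3000 bp, 54 member regions were promoters, and 32 were called in N against bIP and 31 in N against bRG. Keeping the upper part of the aRG peaks by q touched 66 distal member regions. The cause of these shifts was not tested, apart from fewer libraries or more promoter regions by construction.

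Replicate numbers were not taken to pair the libraries, since in no comparison did every same-numbered pair have a correlation of deviations above 0.1. Pairs within a library series had -0.038 to 0.272, and pairs across series -0.232 to 0.076. The deviations were taken from group means with the series left in, so these correlations cannot decide whether the libraries were paired. With the replicate block, promoters and distal regions called were 25 and 231 in N against aRG, 20 and 202 in N against bIP, 24 and 183 in N against bRG, 21 and 118 in bIP against aRG, 14 and 93 in bIP against bRG, and 0 and 0 in bRG against aRG. Of 74 named calls, 15 were lost under some alternative: 9 when a library was left out, 9 in the second series alone, 2 in the first and 3 with the replicate block. DESeq2, its size factors and loess offsets lost 0 of these 74. Apart from the CDH1 and CDH2 promoters, the named calls were picked for the smallest p. Other member calls were lost, among them PCDH8, PCDH9 and PCDH17 in N against aRG with loess offsets. With no filter on low counts, the median of all regions in N minus aRG moved by -0.18. With 2 bRG libraries, the 95% interval of bRG minus aRG lay within 2-fold at 121 of 339 distal regions.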
